A study of Mus musculus with 28 samples.

Results

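Wounds taken 12 h after injury were set against wounds taken 6 h after injury in mouse skin that had been inflamed with imiquimod earlier in life. The members were 4 RNA-seq libraries, 2 at 12 h and 2 at 6 h, chosen by their sample titles, out of 16 RNA-seq libraries and 28 samples in the series. Every library came from epidermal stem cells of C57BL/6 mice labelled female. The cells were sorted as integrin α6+, integrin β1+ and Sca1+ and as CD34-, which keeps basal cells of the epidermis and leaves out hair follicle bulge cells.

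The 12 h and 6 h post-imiquimod groups had received topical imiquimod for 6 days from postnatal day 60, were wounded at day 30 and were harvested 12 h or 6 h later. Imiquimod is an agonist of Toll-like receptor 7 that provokes a psoriasis-like inflammation. Unwounded post-imiquimod skin taken at day 30 served as a further time point. Control groups at 12 h, at 6 h and at day 30 had received Vanicream in place of imiquimod and were otherwise handled alike per the labels. No transgene is named in the labels, and the number of mice behind a library is not given there. With nothing to show that the libraries came from separate mice, p values measure the spread between libraries only.

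In the hours after a wound, keratinocytes at its edge switch on early response transcription factors, then rebuild their actin cytoskeleton and adhesions, and later crawl over the bed and divide. Sterol and fatty acid synthesis supplies the membranes and the barrier lipids of the epidermis, and the SREBP transcription factors raise its genes together when cell sterol runs low. The comparison of 12 h with 6 h asks which genes moved within this early window in skin with a history of inflammation.

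The libraries held 40674917 and 70709213 counts at 12 h and 76993427 and 26810980 counts at 6 h. Levels below are CPM, that is, counts put on 1 scale across libraries with TMM, given for library 1 and then library 2 of a group, and changes are log2 fold changes of 12 h over 6 h with their standard error (SE). Log2 CPM correlated across genes at 0.988 between the 12 h libraries and at 0.985 between the 6 h libraries, and genes are not independent replicates. The markers of the sort were as labelled. Ly6a, the gene of Sca1, stood at 919 and 684 CPM at 12 h, against 825 and 769 CPM at 6 h, and Krt5, the keratin of basal cells, stood at 24781 and 19169 CPM at 12 h, against 16341 and 14882 CPM at 6 h. Cd34 had 0.367 and 0.715 CPM at 12 h, against 0.512 and 0.395 CPM at 6 h, and Ptprc, the pan-leukocyte gene, reached 0.143 CPM at most. Each of the 4 libraries held 1 read of Y-linked genes, whereas library 1 of unwounded post-imiquimod skin held 6023 such reads and 1 read of Xist, against its label. In the control groups the day 30 library 1 was of the same kind, with 7830 Y-linked reads and 0 of Xist.

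Among the 29 pathway lists, that of sterol and fatty acid synthesis held the most called genes. The lists were chosen with earlier results of these data known. Of 17299 genes tested, 30 passed the threshold of an adjusted p under 0.05, which is 0.173% of them. Of these, 26 (0.15%) were higher and 4 (0.0231%) lower at 12 h than at 6 h, by the quasi-likelihood F test of edgeR with Benjamini-Hochberg adjustment over all genes tested. The CPM of the 12 h and 6 h libraries did not overlap for any of the 30. Of all genes, 24.7% were higher and 22.8% lower without overlap. The same libraries gave the calls, so the lack of overlap adds no support to them. Among the genes that rose were 7 members of the list of 33 sterol and fatty acid synthesis genes, and 27 of the 30 changed by at least 1 on the log2 scale. The median log2 change of all genes tested was 0.0075, and 50.8% of them had a positive change. At an unadjusted p under 0.05, 1157 genes (6.69%) were higher and 701 (4.05%) lower. DESeq2 called 365 of the 17299 genes, 275 higher and 90 lower, which include all 30. It gave no adjusted p for 4360 genes. The call rests on every library: without library 1 or 2 of 12 h the same test called 10 and 6 genes, and without library 1 of 6 h it called 5. Without library 2 of 6 h edgeR called 0 genes, with 809 at an unadjusted p under 0.05. Without both day 30 libraries that held Y-linked reads it called 77 genes, all 30 among them.

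**Figure D1:**
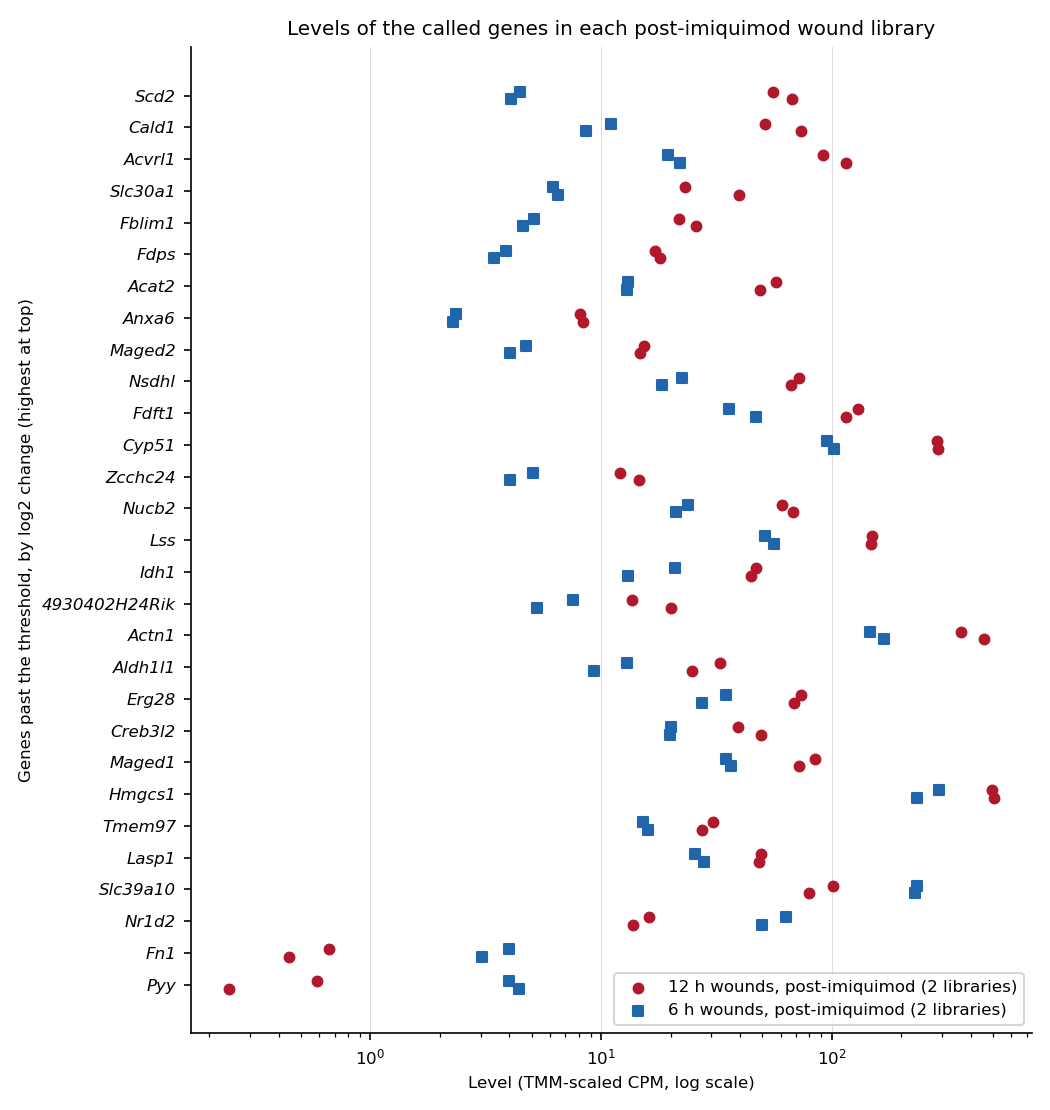
Level in TMM-scaled CPM on a log axis (horizontal) of 29 genes past the threshold (vertical, ordered by log2 change) in each of the 2 libraries at 12 h (red circles) and the 2 libraries at 6 h (blue squares) of post-imiquimod wounds. The 12 h points lie right of the 6 h points for 25 genes and left of them for 4, with no overlap; Fn1 and Pyy are the genes with 12 h points under 1 CPM.

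Promoters of 4 genes that changed are printed because the sterol genes moved together and because a zinc exporter was among the highest changes. They cover 250 bases before to 50 bases after the start, from RefSeq on GRCm38.p6, 5′ to 3′ on the strand of the gene, and capitals mark motif matches. Hmgcs1 lies at chr13:119690101-119690400 on the + strand, Cyp51 at chr5:4104648-4104947 on the - strand, Nsdhl at chrX:72918271-72918570 on the + strand and Slc30a1 at chr1:191906531-191906830 on the + strand. In the sterol genes capitals mark the SREBP element TCACNCCAC and the box CCAAT, on either strand. In Slc30a1 they mark the metal response element, TGCACNC or TGCGCNC, on either strand.
Hmgcs1: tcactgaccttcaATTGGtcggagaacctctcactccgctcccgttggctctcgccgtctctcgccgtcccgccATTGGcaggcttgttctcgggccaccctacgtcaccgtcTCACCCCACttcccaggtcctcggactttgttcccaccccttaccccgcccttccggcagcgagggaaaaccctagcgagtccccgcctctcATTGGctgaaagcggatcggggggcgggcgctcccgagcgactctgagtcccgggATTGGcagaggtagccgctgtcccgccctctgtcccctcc
Cyp51: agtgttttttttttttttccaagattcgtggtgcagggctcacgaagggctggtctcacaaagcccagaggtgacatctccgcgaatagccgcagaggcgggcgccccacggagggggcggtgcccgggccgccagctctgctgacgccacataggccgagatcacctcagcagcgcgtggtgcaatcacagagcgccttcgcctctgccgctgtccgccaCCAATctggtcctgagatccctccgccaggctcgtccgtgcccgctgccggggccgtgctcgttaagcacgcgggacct
Nsdhl: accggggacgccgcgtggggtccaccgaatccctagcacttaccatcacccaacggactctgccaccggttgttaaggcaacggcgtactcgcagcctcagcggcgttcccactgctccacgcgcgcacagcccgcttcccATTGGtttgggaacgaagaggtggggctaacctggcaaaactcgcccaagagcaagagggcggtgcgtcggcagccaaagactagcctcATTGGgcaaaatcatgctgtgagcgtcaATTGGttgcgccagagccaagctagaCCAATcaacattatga
Slc30a1: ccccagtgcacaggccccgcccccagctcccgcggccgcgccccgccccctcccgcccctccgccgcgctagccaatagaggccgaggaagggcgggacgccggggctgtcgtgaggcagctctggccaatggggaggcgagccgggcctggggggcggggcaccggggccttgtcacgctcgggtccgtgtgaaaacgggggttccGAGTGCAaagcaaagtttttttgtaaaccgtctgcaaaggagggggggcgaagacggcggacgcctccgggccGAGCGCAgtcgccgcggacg
Of the 30 genes called, 23 had a promoter in the RefSeq table, and of the 33 list genes 22 had one. The SREBP element was in 1.24% of all promoters of this length, and at least 1 promoter held it for 1.44% of genes. Hmgcs1 held a match, which begins at -137 from the start. It was the only match among the 22 sterol promoters and among the 23 of called genes. The search took this 1 string of letters, so variants of the element were not counted. The CCAAT box was in 37.4% of all promoters, and at least 1 promoter held it for 41.1% of genes. It was in 19 of the 22 sterol genes and in 16 of the 23 called genes. Hmgcs1 and Nsdhl held 4 matches each, and Cyp51 held 1, at -29. The metal response element, chosen after the values were seen, was in 25.7% of promoters and in at least 1 promoter of 28.2% of genes. It was in 13 of the 23 called genes and in 8 of the 22 sterol genes, and Slc30a1 held it at -43 and at 30. No match in these 4 windows overlapped a match of another motif that was marked. Other motifs were searched on both strands. Among the called genes, AP-1 (TGACTCA, 5.2% of promoters and 5.95% of genes) was in Cald1 and Fblim1. The E-box (CACGTG, 7.15% and 8.09%) was in Lasp1, and E2F (GCGGGAA, 4.6% and 5.29%) in Lss and Lasp1. The nuclear receptor motif (AGGTCA, 16.3% and 18.1%) was in Fblim1, Aldh1l1, Hmgcs1 and Nr1d2. It was not among the motifs planned. The D-box (TTATGTAA, 0.938% and 1.11%) was in none. Among the 22 sterol genes, 2 held AP-1 (5.95% of all genes), 4 the E-box (8.09%) and 3 E2F (5.29%). The nuclear receptor motif was in 5 of the 22 (18.1%) and the D-box in 0 (1.11%). A match is a run of letters and not a measured site.

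Genes along the sterol pathway, from its entry to its late steps, had higher levels at 12 h. Hmgcs1, which makes HMG-CoA at the entry of the pathway, stood at 497 and 503 CPM at 12 h, against 292 and 235 CPM at 6 h, and rose by 0.92 ± 0.16 on the log2 scale (adjusted p = 0.0483). Acat2, the cytosolic thiolase that supplies it with acetoacetyl-CoA, stood at 57.1 and 48.8 CPM at 12 h, against 13.0 and 13.0 CPM at 6 h, and rose by 2.02 ± 0.21 (adjusted p = 0.00132). The 12 h values of both genes lay well above those at 6 h, while Tcp1, whose 3′ end meets that of Acat2 and could share its reads, stood at 466 and 477 CPM at 12 h, against 461 and 478 CPM at 6 h.

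Of the mevalonate steps that follow, Fdps passed. Fdps, which makes farnesyl diphosphate, stood at 17.2 and 18.0 CPM at 12 h, against 3.88 and 3.44 CPM at 6 h, and rose by 2.26 ± 0.38 (adjusted p = 0.035). Processed copies of Fdps elsewhere in the genome make its counts uncertain. Mvd, the decarboxylase of the pathway, stood at 55.8 and 47.2 CPM at 12 h, against 8.21 and 6.91 CPM at 6 h. Its log2 change of 2.76 ± 0.56 was among the highest of the list but had an adjusted p of 0.095, and Pmvk (1.71 ± 0.34, adjusted p = 0.0816) and Idi1 (1.52 ± 0.28, adjusted p = 0.0524) were also close to the threshold.

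The squalene and lanosterol steps held most of the calls of the list. Fdft1, squalene synthase, stood at 130 and 115 CPM at 12 h, against 35.8 and 47.0 CPM at 6 h, and rose by 1.57 ± 0.22 (adjusted p = 0.00904). Lss, which closes the sterol rings, stood at 149.9 and 148 CPM at 12 h, against 51.3 and 56.1 CPM at 6 h, and rose by 1.47 ± 0.22 (adjusted p = 0.0173). Cyp51, which demethylates lanosterol, stood at 286 and 288 CPM at 12 h, against 94.9 and 102 CPM at 6 h, and rose by 1.54 ± 0.20 (adjusted p = 0.00554). In all of these genes both 12 h libraries lay far above both 6 h libraries. Nsdhl, which removes the methyl groups of the sterol nucleus, stood at 71.9 and 66.8 CPM at 12 h, against 22.3 and 18.4 CPM at 6 h, and rose by 1.76 ± 0.17 (adjusted p = 0.000782). Erg28, known in yeast as a scaffold for the same demethylation steps, stood at 73.2 and 68.2 CPM at 12 h, against 34.8 and 27.5 CPM at 6 h, and rose by 1.18 ± 0.15 (adjusted p = 0.00554). Sqle, the squalene epoxidase, stood at 252 and 270 CPM at 12 h, against 98.1 and 120.5 CPM at 6 h, and did not pass (1.26 ± 0.35, adjusted p = 0.212).

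Among fatty acid genes Scd2 changed the most of all 30 genes. Scd2, a stearoyl-CoA desaturase, stood at 55.6 and 67.0 CPM at 12 h, against 4.43 and 4.07 CPM at 6 h, and rose by 3.84 ± 0.52 (adjusted p = 0.0173). Its paralog Scd1 had 148 and 159 CPM at 12 h, against 91.0 and 37.4 CPM at 6 h, with a wide spread between the 6 h libraries (1.26 ± 0.59, adjusted p = 0.491). Fasn, the fatty acid synthase (0.49 ± 0.16, adjusted p = 0.259), Acaca, which makes malonyl-CoA (0.63 ± 0.14, adjusted p = 0.116), and Acly, which supplies acetyl-CoA (0.64 ± 0.21, adjusted p = 0.257), had smaller changes that did not pass. Fads1, a desaturase of polyunsaturated fatty acids, was at 1.76 and 1.22 CPM at 12 h, against 0.307 and 0.355 CPM at 6 h (2.17 ± 0.41, adjusted p = 0.0603).

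Of the 33 list members, all tested, 32 had a positive log2 change and 31 were higher at 12 h with no overlap, against 24.7% of all genes. At an unadjusted p under 0.05, 27 were higher and 0 lower, against 6.69% and 4.05% of all genes, and the median of the list was 1.11. Srebf2, the regulator of the sterol genes, stood at 358 and 384 CPM at 12 h, against 206 and 254 CPM at 6 h (0.69 ± 0.17, adjusted p = 0.144). Srebf1, which governs the fatty acid genes, overlapped between the times (0.15 ± 0.20, adjusted p = 0.869). Of the 33 genes, 20 passed by DESeq2, which called 365 of all 17299 genes tested.

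**Figure D2:**
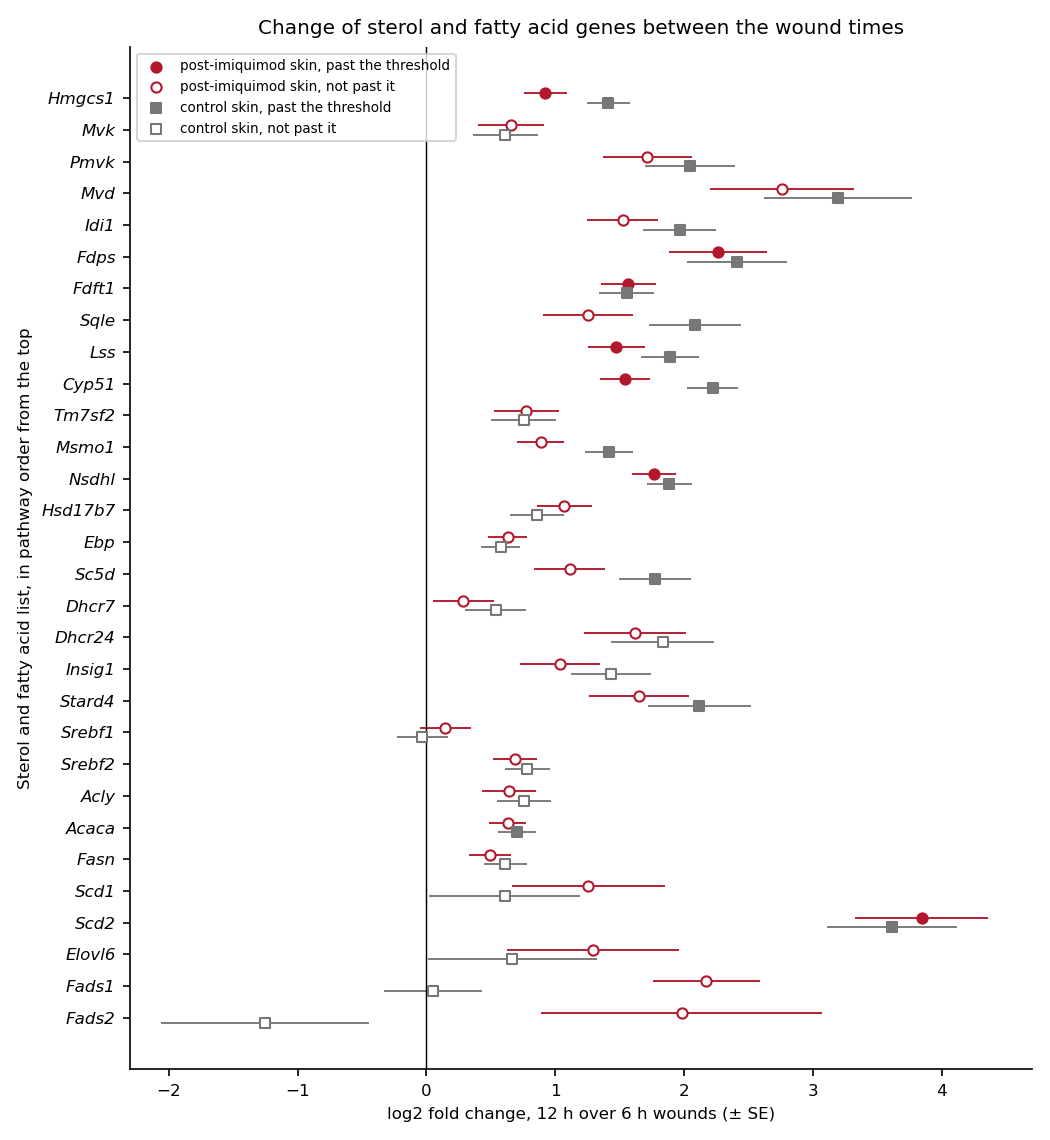
Log2 fold change of 12 h over 6 h wounds (horizontal, bars are SE) for 30 genes of sterol and fatty acid synthesis (vertical) in post-imiquimod skin (red circles) and control skin (grey squares), each from 2 libraries per time; filled symbols passed the threshold. In post-imiquimod skin all 30 points lie right of 0 and 7 are filled, and in control skin 28 lie right of 0 and 15 are filled.

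Other enzymes and membrane genes were among the calls, and they are named because they passed, after their values were seen. Idh1, the cytosolic isocitrate dehydrogenase that supplies NADPH, stood at 46.9 and 44.5 CPM at 12 h, against 20.9 and 13.1 CPM at 6 h, and rose by 1.42 ± 0.23 (adjusted p = 0.0333). Tmem97, a membrane protein that binds sterols, rose by 0.89 ± 0.16 (adjusted p = 0.0483), with 30.5 and 27.3 CPM at 12 h, against 15.3 and 16.0 CPM at 6 h. Both genes have roles next to sterol synthesis and stand outside the list. Acat2 and Erg28, described above, are also outside the list and were named because they passed. Aldh1l1, an enzyme of folate metabolism, rose by 1.36 ± 0.22 (adjusted p = 0.0245). Creb3l2, a transcription factor of the secretory pathway, rose by 1.14 ± 0.17 (adjusted p = 0.0166). Nucb2, a calcium-binding protein, stood at 60.8 and 67.6 CPM at 12 h, against 23.9 and 21.0 CPM at 6 h, and rose by 1.51 ± 0.15 (adjusted p = 0.000782).

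Some of the called genes encode proteins that bind actin or adhesions, and they are described together after their values were seen, not as a tested list. Actn1, which crosslinks actin at adhesions, stood at 364 and 458 CPM at 12 h, against 147 and 168 CPM at 6 h, and rose by 1.38 ± 0.19 (adjusted p = 0.00807). Cald1, caldesmon, which binds actin and myosin, stood at 51.2 and 73.8 CPM at 12 h, against 11.0 and 8.57 CPM at 6 h, and rose by 2.67 ± 0.45 (adjusted p = 0.0483). Fblim1, migfilin, which links filamin to adhesions, stood at 21.8 and 25.8 CPM at 12 h, against 5.11 and 4.58 CPM at 6 h, and rose by 2.29 ± 0.29 (adjusted p = 0.00554). All 3 genes had higher 12 h values in both libraries, and all 3 already stood higher at 6 h than in unwounded post-imiquimod skin, where Actn1 had 60.3 and 57.8 CPM. Lasp1, an actin-binding LIM protein, stood at 49.3 and 48.1 CPM at 12 h, against 25.4 and 27.9 CPM at 6 h, and rose by 0.87 ± 0.13 (adjusted p = 0.02). Unlike the other 3, it had 48.2 and 57.4 CPM in unwounded skin, which its 12 h values overlapped. Anxa6, an annexin that binds membranes, rose by 1.83 ± 0.28 (adjusted p = 0.0207), with 8.13 and 8.33 CPM at 12 h, against 2.34 and 2.29 CPM at 6 h, and was below its 21.5 and 27.5 CPM of unwounded skin at both wound times.

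The list of migration and matrix remodelling held 48 tested genes, of which 1, Actn1, passed as higher and 1, Fn1, as lower. At an unadjusted p under 0.05, 12 were higher and 1 lower, against 6.69% and 4.05% of all genes. Without overlap, 24 were higher and 6 lower, against 24.7% and 22.8% of all genes, so the lower count was under the background share, and the median was 0.30. Fn1, fibronectin, stood at 0.661 and 0.444 CPM at 12 h, against 3.98 and 3.04 CPM at 6 h, and fell by 2.70 on the log2 scale (SE 0.44, adjusted p = 0.0317). It was at a low level in each library, 7.47 and 5.06 CPM in unwounded skin included. Fibroblasts are rich in Fn1, and the summed level of 13 tested fibroblast markers was 774 and 535 CPM at 12 h, against 563 and 404 CPM at 6 h. Their median log2 change was 0.086, with 7 positive and 6 negative, and a sum can rest on a few genes. Of the 13, 0 passed in edgeR and 2 in DESeq2. At an unadjusted p under 0.05, 1 was higher and 1 lower, against 6.69% and 4.05% of all genes. The part of other cells in the Fn1 value was not tested.

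Several proteinase and matrix genes had large changes that did not pass, and they are named after their values were seen. Mmp9, a gelatinase of migrating keratinocytes, had 104 and 239 CPM at 12 h, against 9.07 and 5.73 CPM at 6 h (4.52 ± 0.87, adjusted p = 0.0936). Tnc, tenascin C, had 80.8 and 119 CPM at 12 h, against 16.2 and 11.9 CPM at 6 h (2.82 ± 0.51, adjusted p = 0.0709). Plau, urokinase, had 142 and 206 CPM at 12 h, against 89.8 and 87.6 CPM at 6 h (0.97 ± 0.21, adjusted p = 0.0939). The 12 h libraries of all 3 lay above those at 6 h, and library 2 of 12 h was the higher of the pair. Itga5, the α5 subunit of the fibronectin receptor, had 64.8 and 116 CPM at 12 h, against 37.7 and 42.3 CPM at 6 h (1.18 ± 0.41, adjusted p = 0.31).

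Acvrl1 had the smallest adjusted p together with Nsdhl and Nucb2. Acvrl1, a type I receptor of the BMP family known best in endothelium, stood at 91.1 and 115 CPM at 12 h, against 19.5 and 22.0 CPM at 6 h, and rose by 2.32 ± 0.23 (adjusted p = 0.000782). Unwounded post-imiquimod skin had 6.70 and 12.0 CPM, so the order of the 3 times was day 30, 6 h and 12 h without overlap. The summed level of 9 tested endothelial and pericyte markers, Acvrl1 not among them, was 16.5 and 20.1 CPM at 12 h, against 15.1 and 12.1 CPM at 6 h. The median log2 change of the 9 was -0.035, with 4 positive and 5 negative. Of 26 TGF-beta, activin and BMP genes on a list that does not hold Acvrl1, 0 passed in edgeR and 1 in DESeq2, and the median was -0.19. At an unadjusted p under 0.05, 1 (Inhba) was higher and 1 (Tgfb2) lower, against 6.69% and 4.05% of all genes. Among the other calls, Maged2 and Maged1, members of the MAGE-D family, rose by 1.77 ± 0.23 (adjusted p = 0.00795) and by 1.12 ± 0.18 (adjusted p = 0.0245). Zcchc24, a zinc finger gene (1.54 ± 0.26, adjusted p = 0.0371), and 4930402H24Rik (1.39 ± 0.24, adjusted p = 0.0483) also rose.

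A zinc exporter and a zinc importer changed in opposite directions. Slc30a1, which moves zinc out of the cell, stood at 23.1 and 39.5 CPM at 12 h, against 6.19 and 6.52 CPM at 6 h, and rose by 2.30 ± 0.28 (adjusted p = 0.00511). Slc39a10, which brings zinc in, stood at 102 and 79.8 CPM at 12 h, against 234 and 230.4 CPM at 6 h, and fell by 1.36 on the log2 scale (SE 0.20, adjusted p = 0.0164). Slc39a10 had 33.0 and 37.3 CPM in unwounded skin, so its 12 h level was between those of the other 2 times. Related genes named after their values were seen did not pass. Slc39a8, a second zinc importer, had 44.7 and 39.6 CPM at 12 h, against 153 and 206 CPM at 6 h (-2.09 ± 0.39, adjusted p = 0.072). The metallothioneins Mt1 (-1.11 ± 0.34, adjusted p = 0.225) and Mt2 (-0.82 ± 0.34, adjusted p = 0.406), which bind zinc, were lower at 12 h in both libraries than in either 6 h library.

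Most clock genes were lower at 12 h. Of 19 genes of the circadian clock and its outputs, 0 passed as higher and 1 as lower, 9 were lower at an unadjusted p under 0.05, against 4.05% of all genes, and the median was -0.66. The gene that passed was Nr1d2, the repressor REV-ERBβ, with 16.1 and 13.8 CPM at 12 h, against 63.2 and 49.8 CPM at 6 h. It fell by 1.92 on the log2 scale (SE 0.33, adjusted p = 0.0483). Its partner Nr1d1 had 11.8 and 7.88 CPM at 12 h, against 53.0 and 53.1 CPM at 6 h (-2.43 ± 0.44, adjusted p = 0.0704). The output transcription factors Dbp (-3.99 ± 0.84, adjusted p = 0.0963) and Tef (-2.13 ± 0.41, adjusted p = 0.0799) and the repressor Cry2 (-0.91 ± 0.20, adjusted p = 0.0894) were also lower without overlap, while Arntl, the core activator BMAL1, overlapped between the times (-0.21 ± 0.14, adjusted p = 0.651). Per1, a repressor of the clock, had 85.7 and 70.0 CPM at 12 h, against 108 and 138 CPM at 6 h (-0.66 ± 0.27, adjusted p = 0.382). The labels give no hour of day for wounding or harvest. Hours since the wound, hour of day and any batch of the wound times cannot be told apart. Pyy, the gut hormone peptide YY, was the fourth gene that fell, by 3.39 on the log2 scale (SE 0.47, adjusted p = 0.00904), with 0.588 and 0.243 CPM at 12 h, against 4.00 and 4.42 CPM at 6 h.

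**Figure D3:**
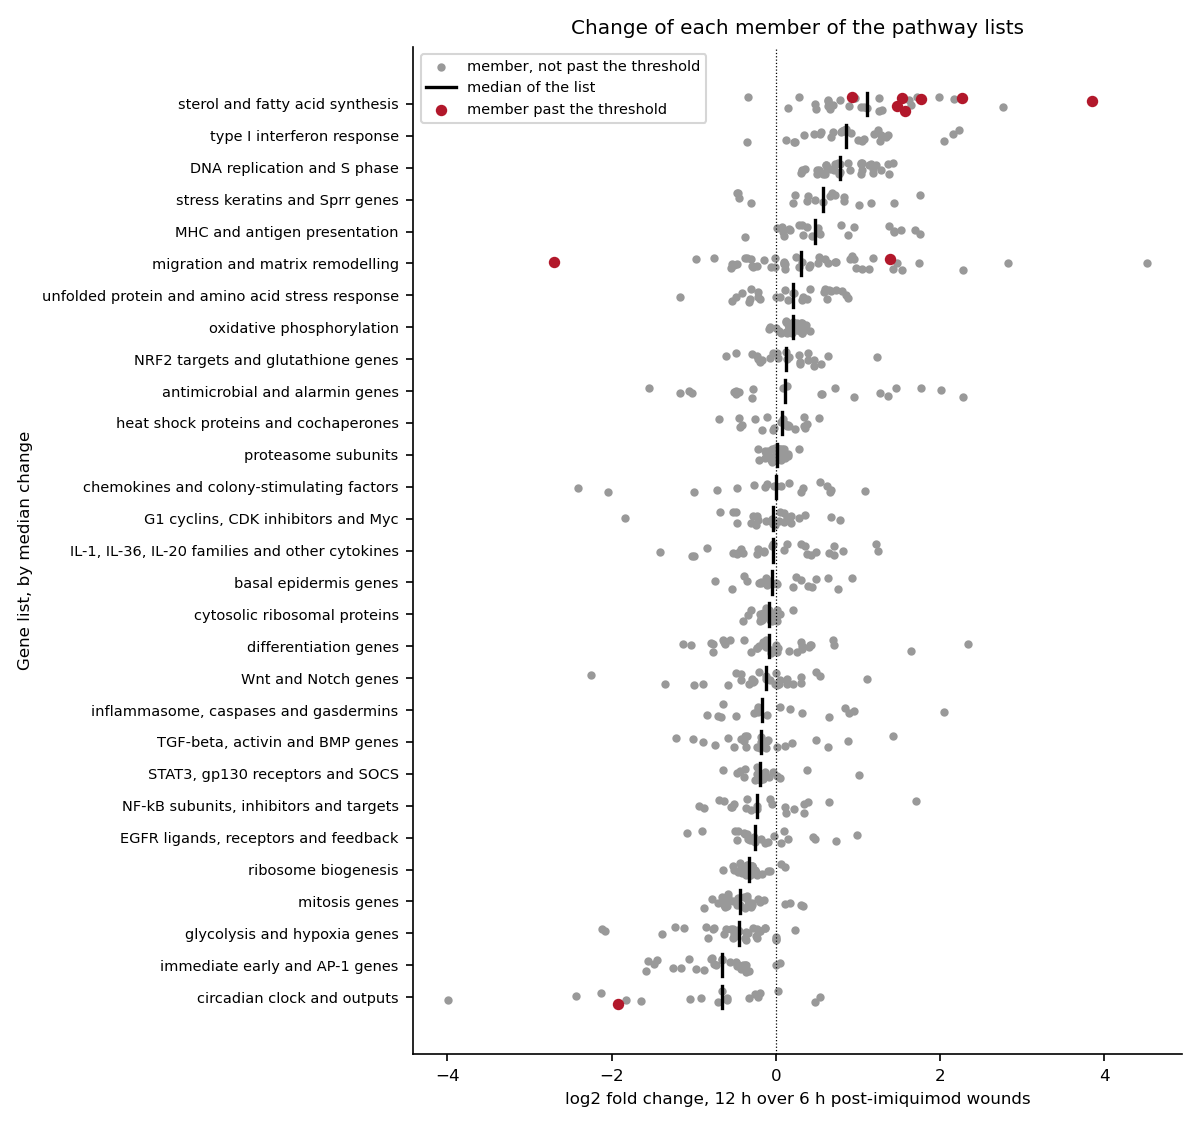
Log2 fold change of 12 h over 6 h post-imiquimod wounds (horizontal) for each tested member of the 29 pathway lists (vertical, ordered by median); dots are genes, red ones passed the threshold, and black bars are list medians. Sterol and fatty acid synthesis has the highest median, 1.11, with 7 red dots, and the immediate early and clock lists the lowest, -0.65 and -0.66.

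Immediate early and AP-1 genes were mostly lower at 12 h, although no single gene passed in edgeR. Their summed level was 5582 and 8245 CPM at 12 h, against 8164 and 13805 CPM at 6 h. In unwounded post-imiquimod skin it was higher than at either wound time, with 46474 and 48191 CPM. Fos alone had 7149 and 6744 CPM in unwounded skin. The cause of the high unwounded level was not tested. Of 27 immediate early and AP-1 genes, 0 passed in edgeR and 1 in DESeq2. Of the 27, 26 had a negative change, 15 were lower with no overlap, against 22.8% of all genes, 12 were lower and 0 higher at an unadjusted p under 0.05, against 4.05% and 6.69%, and the median was -0.65. Atf3, a stress-induced factor, had 218 and 332 CPM at 12 h, against 409 and 903 CPM at 6 h (-1.26 ± 0.49, adjusted p = 0.368). Fosl1, an AP-1 subunit of migrating keratinocytes, had 76.4 and 117 CPM at 12 h, against 149 and 282 CPM at 6 h (-1.15 ± 0.52, adjusted p = 0.461). Fos overlapped between the times, with 987 and 1479 CPM at 12 h, against 1312 and 2011 CPM at 6 h (-0.43 ± 0.32, adjusted p = 0.694). In these genes library 2 of 6 h was the highest of the 4 and library 1 of 12 h the lowest, so part of the spread lay within the groups. The EGFR ligands Hbegf (0.10 ± 0.43, adjusted p = 0.97) and Areg (0.46 ± 0.78, adjusted p = 0.909) overlapped, and of the 24 genes of EGFR ligands, receptors and feedback 0 passed in edgeR or DESeq2 and 0 were under an unadjusted p of 0.05.

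No keratin named here passed. The 12 h libraries of Krt6a, Krt16, Krt5 and Krt14 lay above both 6 h libraries, as for 24.7% of all genes. Krt17 and Krt10 overlapped. The SE came from the fit of all 16 libraries, not from these 4 alone. Krt6a, the stress keratin of wound edges, had 5119 and 6389 CPM at 12 h, against 3447 and 4843 CPM at 6 h (0.47 ± 1.18, adjusted p = 0.944). Krt16 (0.38 ± 0.79, adjusted p = 0.932) and Krt17 (0.21 ± 0.43, adjusted p = 0.926), also induced by wounds, and the suprabasal Krt10 (-0.38 ± 0.50, adjusted p = 0.866) did not pass. Basal keratins had log2 changes of 0.49 ± 0.33 for Krt5 (adjusted p = 0.661) and 0.39 ± 0.37 for Krt14 (adjusted p = 0.785). Of 19 stress keratin and Sprr genes, whose Sprr2 members are near-copies that could share reads, 8 were higher with no overlap, against 24.7% of all genes, and 0 passed in edgeR or DESeq2. In that list 1 gene (Sprr2e) was under an unadjusted p of 0.05, in the higher direction, a share near the 6.69% of all genes. Of 23 basal genes, 10 had a positive and 13 a negative change, and the median was -0.049. At an unadjusted p under 0.05, 3 of them were higher and 0 lower, against 6.69% and 4.05% of all genes. The 3 include the laminin chains Lamb3 (0.63 ± 0.28, adjusted p = 0.43) and Lama3 (0.76 ± 0.35, adjusted p = 0.462), which build the anchor of the epidermis.

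DNA replication genes were higher and mitosis genes mostly lower at 12 h, with no gene past the threshold of edgeR in either list. All 36 genes of DNA replication and S phase were higher at 12 h with no overlap, against 24.7% of all genes, 28 were higher at an unadjusted p under 0.05, against 6.69%, and the median was 0.78. Mcm5, a subunit of the replicative helicase, had 153 and 128 CPM at 12 h, against 61.7 and 46.6 CPM at 6 h (1.37 ± 0.39, adjusted p = 0.217). Lig1, the DNA ligase of replication, had 60.7 and 44.4 CPM at 12 h, against 23.6 and 15.5 CPM at 6 h (1.42 ± 0.32, adjusted p = 0.12). Pcna, the sliding clamp, had 130 and 113 CPM at 12 h, against 96.7 and 98.5 CPM at 6 h (0.32 ± 0.20, adjusted p = 0.638). Of 33 mitosis genes, 22 were lower with no overlap, against 22.8% of all genes, 11 were lower at an unadjusted p under 0.05, against 4.05%, and the median was -0.44. Cdc20, which opens anaphase, had 34.8 and 23.6 CPM at 12 h, against 43.5 and 48.9 CPM at 6 h (-0.66 ± 0.23, adjusted p = 0.28), and the proliferation marker Mki67 had 85.1 and 66.0 CPM at 12 h, against 105 and 87.4 CPM at 6 h (-0.35 ± 0.27, adjusted p = 0.707). In both lists 0 genes passed in edgeR. DESeq2 called 13 replication and 0 mitosis genes, against 365 of all 17299 genes tested. In bulk RNA, fewer cells in a state and less RNA per cell cannot be told apart.

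Interferon and antigen presentation genes were mostly higher at 12 h, again without a gene past the threshold of edgeR. DESeq2 called 1 interferon gene and 4 MHC genes, against 365 of all 17299 genes tested. Of 29 type I interferon response genes, 28 had a positive change, against 50.8% of all genes, and the median was 0.85. Of the list, 19 were higher with no overlap and 0 lower, against 24.7% and 22.8% of all genes, and 10 were higher at an unadjusted p under 0.05, against 6.69%. Bst2, tetherin, had 22.3 and 15.1 CPM at 12 h, against 8.74 and 6.95 CPM at 6 h (1.25 ± 0.26, adjusted p = 0.0879). Isg15, a ubiquitin-like modifier, had 6.44 and 3.28 CPM at 12 h, against 2.40 and 1.54 CPM at 6 h (1.28 ± 0.49, adjusted p = 0.35). Levels were low in this list, and library 1 of 12 h was the higher of its pair in both genes. Of 24 MHC genes, 13 were higher and 0 lower at an unadjusted p under 0.05, against 6.69% and 4.05% of all genes, and the median was 0.47. H2-Ab1, a chain of MHC class II, had 20.4 and 17.4 CPM at 12 h, against 6.16 and 5.49 CPM at 6 h (1.69 ± 0.40, adjusted p = 0.132). Class II genes are also those of Langerhans cells. The summed level of 7 tested Langerhans and dendritic markers was 262 and 234 CPM at 12 h, against 370 and 417 CPM at 6 h. Their median log2 change was -0.60, with 2 positive and 5 negative, and a sum can rest on a few genes. The part of Langerhans cells in these values was not tested. Of the 7 markers, 0 passed in edgeR or DESeq2. At an unadjusted p under 0.05, 2 were higher and 1 lower, against 6.69% and 4.05% of all genes.

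Inflammatory genes named in the panel did not pass. The neutrophil chemokine Cxcl1 had 53.1 and 56.2 CPM at 12 h, against 71.2 and 108 CPM at 6 h (-0.71 ± 0.47, adjusted p = 0.658). Il1b, interleukin-1 beta, was under 1 CPM in each of the 4 libraries (-0.39 ± 0.57, adjusted p = 0.883). Il24, a cytokine of wound-edge keratinocytes, overlapped between the times (-0.42 ± 0.84, adjusted p = 0.925). The transcription factors Stat3 (-0.26 ± 0.18, adjusted p = 0.678) and Hif1a (-0.36 ± 0.27, adjusted p = 0.703), which act in cytokine and hypoxia signalling, were lower at 12 h with no overlap. Casp1, the inflammasome protease, overlapped (0.32 ± 0.27, adjusted p = 0.748). Aim2, a DNA sensor of the inflammasome, had 11.7 and 8.20 CPM at 12 h, against 19.1 and 11.9 CPM at 6 h (-0.65 ± 0.29, adjusted p = 0.449).

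The same step was then read in control skin, whose 12 h and 6 h libraries are separate from those above. There 112 genes passed, 0.647% of those tested, with 84 (0.486%) higher and 28 (0.162%) lower. All 30 genes called in post-imiquimod skin changed in the same sign in control skin, and 21 of them were called there too, which is 70% of the post-imiquimod calls and 18.75% of the control calls. Across the 10239 genes that averaged 2 log2 CPM or more, the changes of both courses had a Pearson r of 0.851 and a Spearman rho of 0.840. Libraries with the same number at 6 h deviated together across genes (r = 0.685 between post-imiquimod and control skin, and 0.279 at 12 h), so the courses are not wholly independent. Acvrl1 rose by 2.01 ± 0.22 in control skin (adjusted p = 0.00179), and Nsdhl rose by 1.88 ± 0.17 there (adjusted p = 0.000296). In the sterol list 16 genes rose and the median change was 1.41 in control skin, where Sqle (2.08 ± 0.36, adjusted p = 0.0339) and Mvd (3.20 ± 0.58, adjusted p = 0.0424) were also past the threshold.

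**Figure D4:**
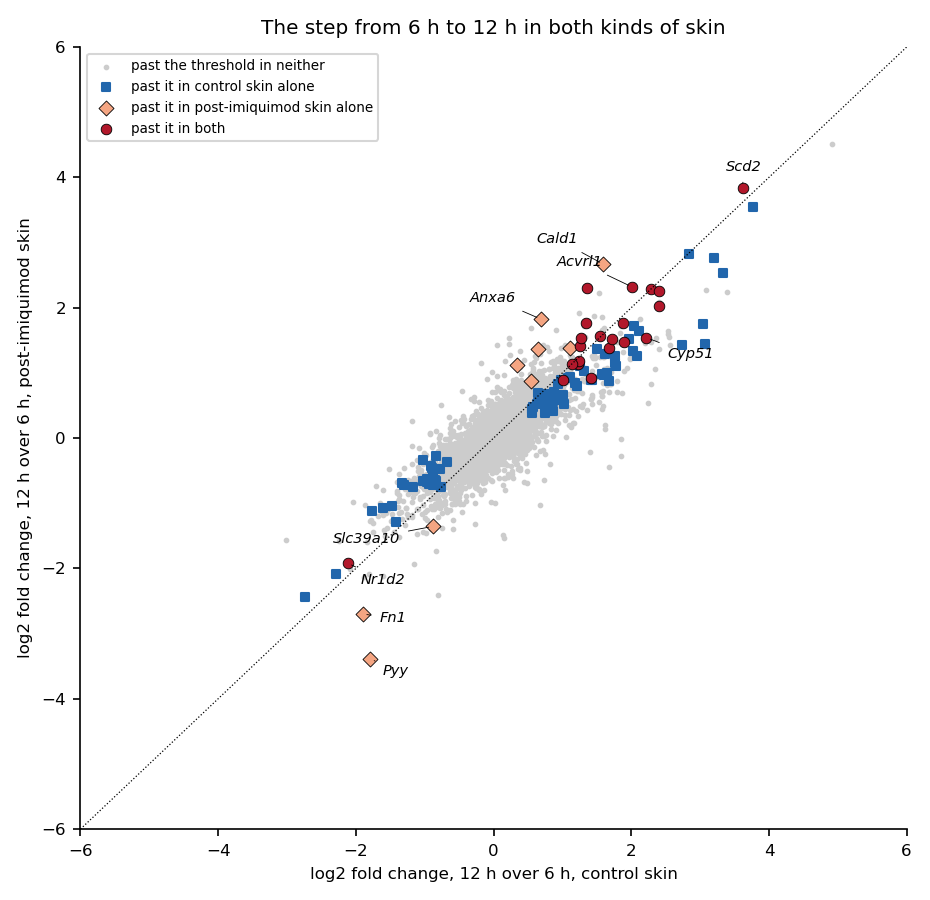
Log2 fold change of 12 h over 6 h in post-imiquimod skin (vertical) and in control skin (horizontal) for 10241 genes, those averaging 2 log2 CPM or more and the called genes below it; colours and shapes mark where a gene passed the threshold, and the dotted line marks equal change. All 30 genes called in post-imiquimod skin lie in the quadrants of equal sign, with Scd2 high and Pyy low.

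No gene was shown to take a different course in post-imiquimod skin. The test of the difference, post-imiquimod minus control, called 0 genes in edgeR (0%) and 0 in DESeq2, and 15 in edgeR without the filter on low counts. At an unadjusted p under 0.05 there were 117 genes (0.676%), 74 (0.428%) more positive and 43 (0.249%) more negative in post-imiquimod skin. That 0.676% is far below the share of 0.05 that a calibrated test gives when no gene differs. The test was therefore conservative here, and 0 calls do not show equal courses. Over the 30 called genes the difference ran from -1.60 to 1.14, and 6 were under an unadjusted p of 0.05. Anxa6 had a difference of 1.14 ± 0.39 (unadjusted p = 0.0121, 95% interval 0.29 to 1.99), with 5.49 and 4.68 CPM at 12 h and 3.97 and 2.25 CPM at 6 h in control skin. Maged1 had a difference of 0.78 ± 0.25 (unadjusted p = 0.0083), Slc30a1 of 0.95 ± 0.38 (unadjusted p = 0.0261), Aldh1l1 of 0.72 ± 0.30 (unadjusted p = 0.0329), Cyp51 of -0.68 ± 0.27 (unadjusted p = 0.0259) and Pyy of -1.60 ± 0.60 (unadjusted p = 0.0197). None of the 6 holds after adjustment, where the smallest adjusted p was 1.00 when rounded. In the sterol list 22 of 33 differences were negative and 3 were under an unadjusted p of 0.05, those of Cyp51, Fads1 (2.12, unadjusted p = 0.0022) and Fads2, another fatty acid desaturase (3.23, unadjusted p = 0.0342), which had at most 0.129 CPM in any of the 4 post-imiquimod libraries. Aim2 was lower at 12 h without overlap in post-imiquimod skin and had 2.46 and 1.79 CPM at 12 h, against 1.37 and 1.16 CPM at 6 h, in control skin. Its difference was -1.37 ± 0.43, with an unadjusted p of 0.00743 and an adjusted p of 1.00.

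Set beside unwounded post-imiquimod skin, the genes that rose showed several patterns, described here by group means. Of the 26, 14 had a lower mean at 6 h than at day 30, 23 had a higher mean at 12 h than at day 30, and 11 had both. In 12 the mean was higher at each later time. Hmgcs1 had 429 and 397 CPM at day 30, 292 and 235 CPM at 6 h and 497 and 503 CPM at 12 h. Scd2 had 21.8 and 21.4 CPM at day 30, 4.43 and 4.07 CPM at 6 h and 55.6 and 67.0 CPM at 12 h. In these 2 genes the 6 h libraries were the lowest of the 3 times. In the sterol list 21 of 33 genes had a lower mean at 6 h than at day 30, and 27 had a higher mean at 12 h than at day 30.

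**Figure D5:**
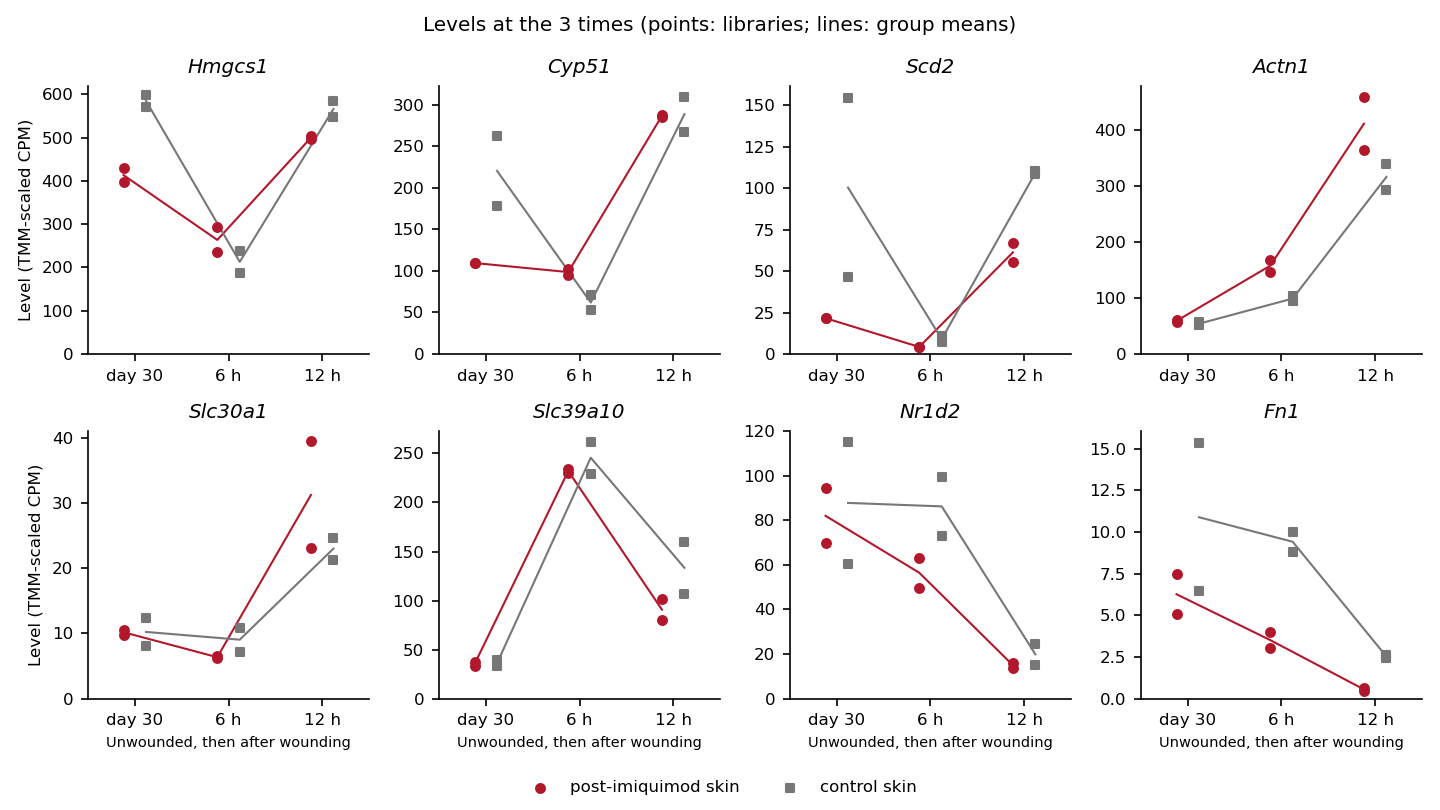
Level in TMM-scaled CPM (vertical, from 0) of 8 called genes in unwounded skin of day 30 and at 6 h and 12 h after wounding (horizontal), in post-imiquimod skin (red circles) and control skin (grey squares); points are the 2 libraries of a group and lines join group means. In post-imiquimod skin Hmgcs1 and Scd2 are lowest at 6 h and highest at 12 h, Actn1 is higher at each later time, Slc39a10 is highest at 6 h, and Nr1d2 and Fn1 are lowest at 12 h.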

How the data were processed

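Epidermal stem cell RNA was made into TruSeq libraries, which do not mark strand, per the labels' protocols. The deposited files hold raw counts, 1 whole number per gene and library (column 2), made with STAR on mm10 per the submitters' processing notes. Tool versions, the annotation release and the strand column kept are unstated in these sources, so overlapping genes cannot be separated. Of 47729 gene IDs, 47224 matched a symbol. The 12 ATAC-seq samples were not analysed here. Counts cover all genes tested, and some single genes are not reported here.

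All 16 RNA-seq libraries (23623968 to 76993427 counts) entered 1 fit of 8 group means with 8 residual degrees of freedom in edgeR 4.0.16 under R 4.3.3, with TMM scaling, filterByExpr, a robust quasi-likelihood F test, two-sided p values and Benjamini-Hochberg adjustment over 17299 genes. The smallest exact permutation p for 2 libraries against 2 is 0.333, so single-gene tests rest on spread shared between genes (biological coefficient of variation 23.0%). The test was checked on simulated data.

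The members, 29 pathway lists, 16 marker and quality lists and the tests were chosen with earlier results of these data known. Of 975 list genes, 972 were found. The naming rule took up to 12 genes per direction by log2 change among genes past the threshold (2 log2 CPM or more on average, no overlap, no predicted genes), a fixed panel of 19 genes and up to 3 called members of a list. Alternatives were RLE scaling, no filter, DESeq2 1.42.0, fewer libraries, replicate blocks, thinning to 23623968 counts, an effect size limit and leaving out each library. Precision from depth means counting error alone, because reads are not molecules.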

Additional observations from a re-analysis of the deposited data

How the results depend on the processing

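All 30 genes called kept their sign under each alternative run, and none kept its call in all 13. Against 30 calls, post-imiquimod skin had 624 without the filter on low counts, 365 by DESeq2, 120 with only the compared libraries, 177 with only the 8 wound libraries and 77 without both day 30 libraries numbered 1 (an alternative chosen after seeing the data), and 0 to 10 with 1 library left out. Against 112 calls, control skin had 980, 698, 316, 434 and 211 under the same 5 settings, 71 with a log2 change of at least 1, and 13 to 43 with 1 library left out. The difference of the courses gave 15 calls without the filter and 0 under the other settings run. RLE gave 26 calls and thinned libraries 29. The cause of these shifts was not tested beyond fewer libraries or more genes entering a fit.

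The replicate numbers of the labels did not pair the wound times: deviations of same-numbered libraries correlated at 0.109 in post-imiquimod and at -0.042 in control skin. With the number as a replicate block over the wound libraries 34 and 135 genes were called in post-imiquimod and control skin, and with the replicate block within each time point 113 and 286. Acvrl1, Acat2, Nsdhl and Nucb2 kept their call in all settings but 1. With 1 library left out the log2 change ran from -0.15 to 0.89 for Areg, from -0.078 to 0.60 for Krt17, from -0.35 to 0.45 for Hbegf (-0.15 without library 1 of 6 h) and from -0.85 to 0.14 for Il24, and with thinned libraries Il1b had 0.0075. None of these 5 had passed. With 2 libraries a time, a gene that missed the threshold is not shown to be unchanged.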

Other observations

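In 26 of the 29 pathway lists no member passed in edgeR. Of 35 ribosome biogenesis genes, 32 were lower at 12 h than at 6 h with no overlap, against 22.8% of all genes, 10 were lower at an unadjusted p under 0.05, against 4.05%, and the median log2 change was -0.33. Nop2, a methyltransferase of ribosomal RNA, had 175 and 178 CPM at 12 h, against 222 and 283 CPM at 6 h (-0.52 ± 0.20, adjusted p = 0.35). Of 36 oxidative phosphorylation genes, 27 were higher with no overlap, against 24.7% of all genes, and the median was 0.20. At an unadjusted p under 0.05, 2 of them were higher, a share near the 6.69% of all genes. Of 34 glycolysis and hypoxia genes, 14 were lower with no overlap, against 22.8% of all genes, and the median was -0.45. Pfkfb3, an activator of glycolysis, had 35.3 and 21.5 CPM at 12 h, against 66.2 and 182 CPM at 6 h (-2.12 ± 0.79, adjusted p = 0.367), with library 2 of 6 h far above library 1.

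In the list of unfolded protein and amino acid stress genes, members differed in direction. Pdia6, a disulfide isomerase, had 671 and 685 CPM at 12 h, against 390.3 and 386 CPM at 6 h (0.80 ± 0.25, adjusted p = 0.239), and Ppp1r15a, which ends the stress arrest of translation, had 46.3 and 47.6 CPM at 12 h, against 61.6 and 149.7 CPM at 6 h (-1.17 ± 0.43, adjusted p = 0.35). Over the 29 genes of that list, 10 were higher and 2 lower at an unadjusted p under 0.05, against 6.69% and 4.05% of all genes, and 0 passed in edgeR or DESeq2. Nfkbia, the NF-kB inhibitor that NF-kB itself induces, had 324 and 354 CPM at 12 h, against 459 and 841 CPM at 6 h (-0.94 ± 0.31, adjusted p = 0.253). The median of the 13 lists not described one by one lay between -0.23 for NF-kB genes and 0.13 for NRF2 targets and glutathione genes.

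None of the 16 marker and quality lists held a gene past the threshold of edgeR. Of their 127 tested members, 6 were higher and 7 lower at an unadjusted p under 0.05, against 6.69% and 4.05% of all genes. DESeq2 called 4 of the 127, against 365 of all 17299 genes tested. The summed level of 16 tested macrophage markers was 350.0 and 416 CPM at 12 h, against 376 and 432 CPM at 6 h. Their median log2 change was -0.45, with 4 positive and 12 negative. Of the 14 neutrophil markers, S100a8 and S100a9 are also made by wound keratinocytes. The 5 that were tested summed to 859 and 735 CPM at 12 h, against 518 and 1533 CPM at 6 h, with library 2 of 6 h far above library 1.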
